A study of Mus musculus with 18 samples.

Results

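The 52 G2, mitosis and kinetochore genes described here were taken as a list of gene symbols whose proteins act between G2 and cytokinesis. All 52 were found in both tables of the study, among 18329 genes in the acute table and 18953 in the survival table, and all 52 passed the filter on low values in both. The study measured RNA of leukemic spleens from C57BL/6 mice bearing T-cell acute lymphoblastic leukemia (T-ALL), a cancer of T-cell precursors, in which the Acly gene can be removed on demand. Acly is the enzyme that makes acetyl-CoA from citrate outside mitochondria. The leukemias had been injected into sub-lethally irradiated recipients, and every library, KO or WT, came from a leukemia with that conditional allele. KO mice received tamoxifen by intraperitoneal injection, 3 mg a mouse in corn oil, and are labelled Acly deleted, whereas WT mice received corn oil alone, so the groups differ in the drug as well as in the gene. In the acute arm (4 KO and 4 WT libraries) mice were treated when overtly leukemic and spleens were taken 48 h later. In the survival arm (3 KO libraries of a first wave, 3 KO libraries of a second wave and 4 WT libraries) treatment came 48 h after transplant and spleens were taken at the humane endpoint. The labels do not say what separates the waves, which Cre was used, how many primary leukemias were transplanted, or whether each library is a separate mouse, so p-values here measure the spread between these libraries.

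Genes of G2 and mitosis are transcribed late in the cell cycle, when the MuvB complex with B-Myb (Mybl2) and FoxM1 acts on promoters that often hold a CHR element and CCAAT boxes. Their products bring chromosomes into condensed form, build the spindle, attach kinetochores to microtubules, hold anaphase back until attachment is complete and then divide the cell. Because they are expressed by dividing cells, their level in bulk tissue is widely used as a measure of proliferation. Spleen suspensions are bulk samples, in which fewer dividing cells and less RNA per dividing cell cannot be told apart.

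Values are the authors' DESeq-normalized counts, which sum to 7067041 to 8026397 a library in the acute table and 9193232 to 10386517 in the survival table. Differences were tested within each table with limma on log2(value + 1), with p-values adjusted over all genes tested and a threshold of 0.05. A log2 fold change is KO over WT, so a negative value is a lower level in KO. Acly, the targeted gene, was at 793, 804, 717 and 619.6 normalized counts in the acute KO libraries, against 1422, 1129, 1231 and 1241 in the acute WT libraries. It fell to 58.4% of the WT mean in acute KO (log2 fold change -0.78, SE 0.13, limma adjusted p = 0.00266) and to 34% in the second wave (-1.56, SE 0.17, adjusted p = 0.00155). It stood at 42.8% of WT in the first wave, where it missed the threshold (-1.22, SE 0.17, adjusted p = 0.0562, or 0.0255 without second wave library 3, which shares the fit). Thymocyte and T-ALL markers were present throughout, with 23 of 24 above the filter in both tables. WT survival libraries 1 and 2 stood apart from the other survival libraries on the first principal component, at 78.6 and 67.2, against -18.8 and 4.16 for WT survival libraries 3 and 4. KO second wave library 1 stood as far out on the other side, at -73.2 (the other KO survival libraries -16.5 to -3.65), with the highest erythroid share of the arm, 0.560%. Without WT survival libraries 1 and 2 the log2 fold change against WT changed sign for 13 of the 52 in the first wave and 17 in the second, and without that KO library for 8 in the second. Values without these libraries stand below beside many of the survival values they move.

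In the acute arm, 13 of the 52 genes fell in KO and none rose, where 12.6% of all genes tested passed the threshold, 8.07% lower and 4.58% higher. The genes that fell were the cyclins Ccna2 and Ccnb1, the checkpoint gene Mad2l1, the centromere and kinetochore genes Cenpa and Spc25, the spindle genes Nusap1, Hmmr, Ckap2l and Kif11, the cytokinesis genes Prc1 and Kif20b, and the chromosome structure genes Top2a and Smc2. Log2 fold changes were below 0 for 40 of the 52 and above 0 for 12, against 47.6% and 52.4% of all genes. They ran from -1.0 for Ccnb1 to 0.34 for Ube2s, with a median of -0.21 beside 0.03 over all genes tested. KO and WT libraries did not overlap for 13 of the 52, each of them lower in KO, where 11% of all genes were lower without overlap and 8.04% higher. At an unadjusted p under 0.05, 18 of the 52 were lower and 1 was higher, where 15.6% and 12.5% of all genes were.

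**Figure D1:**
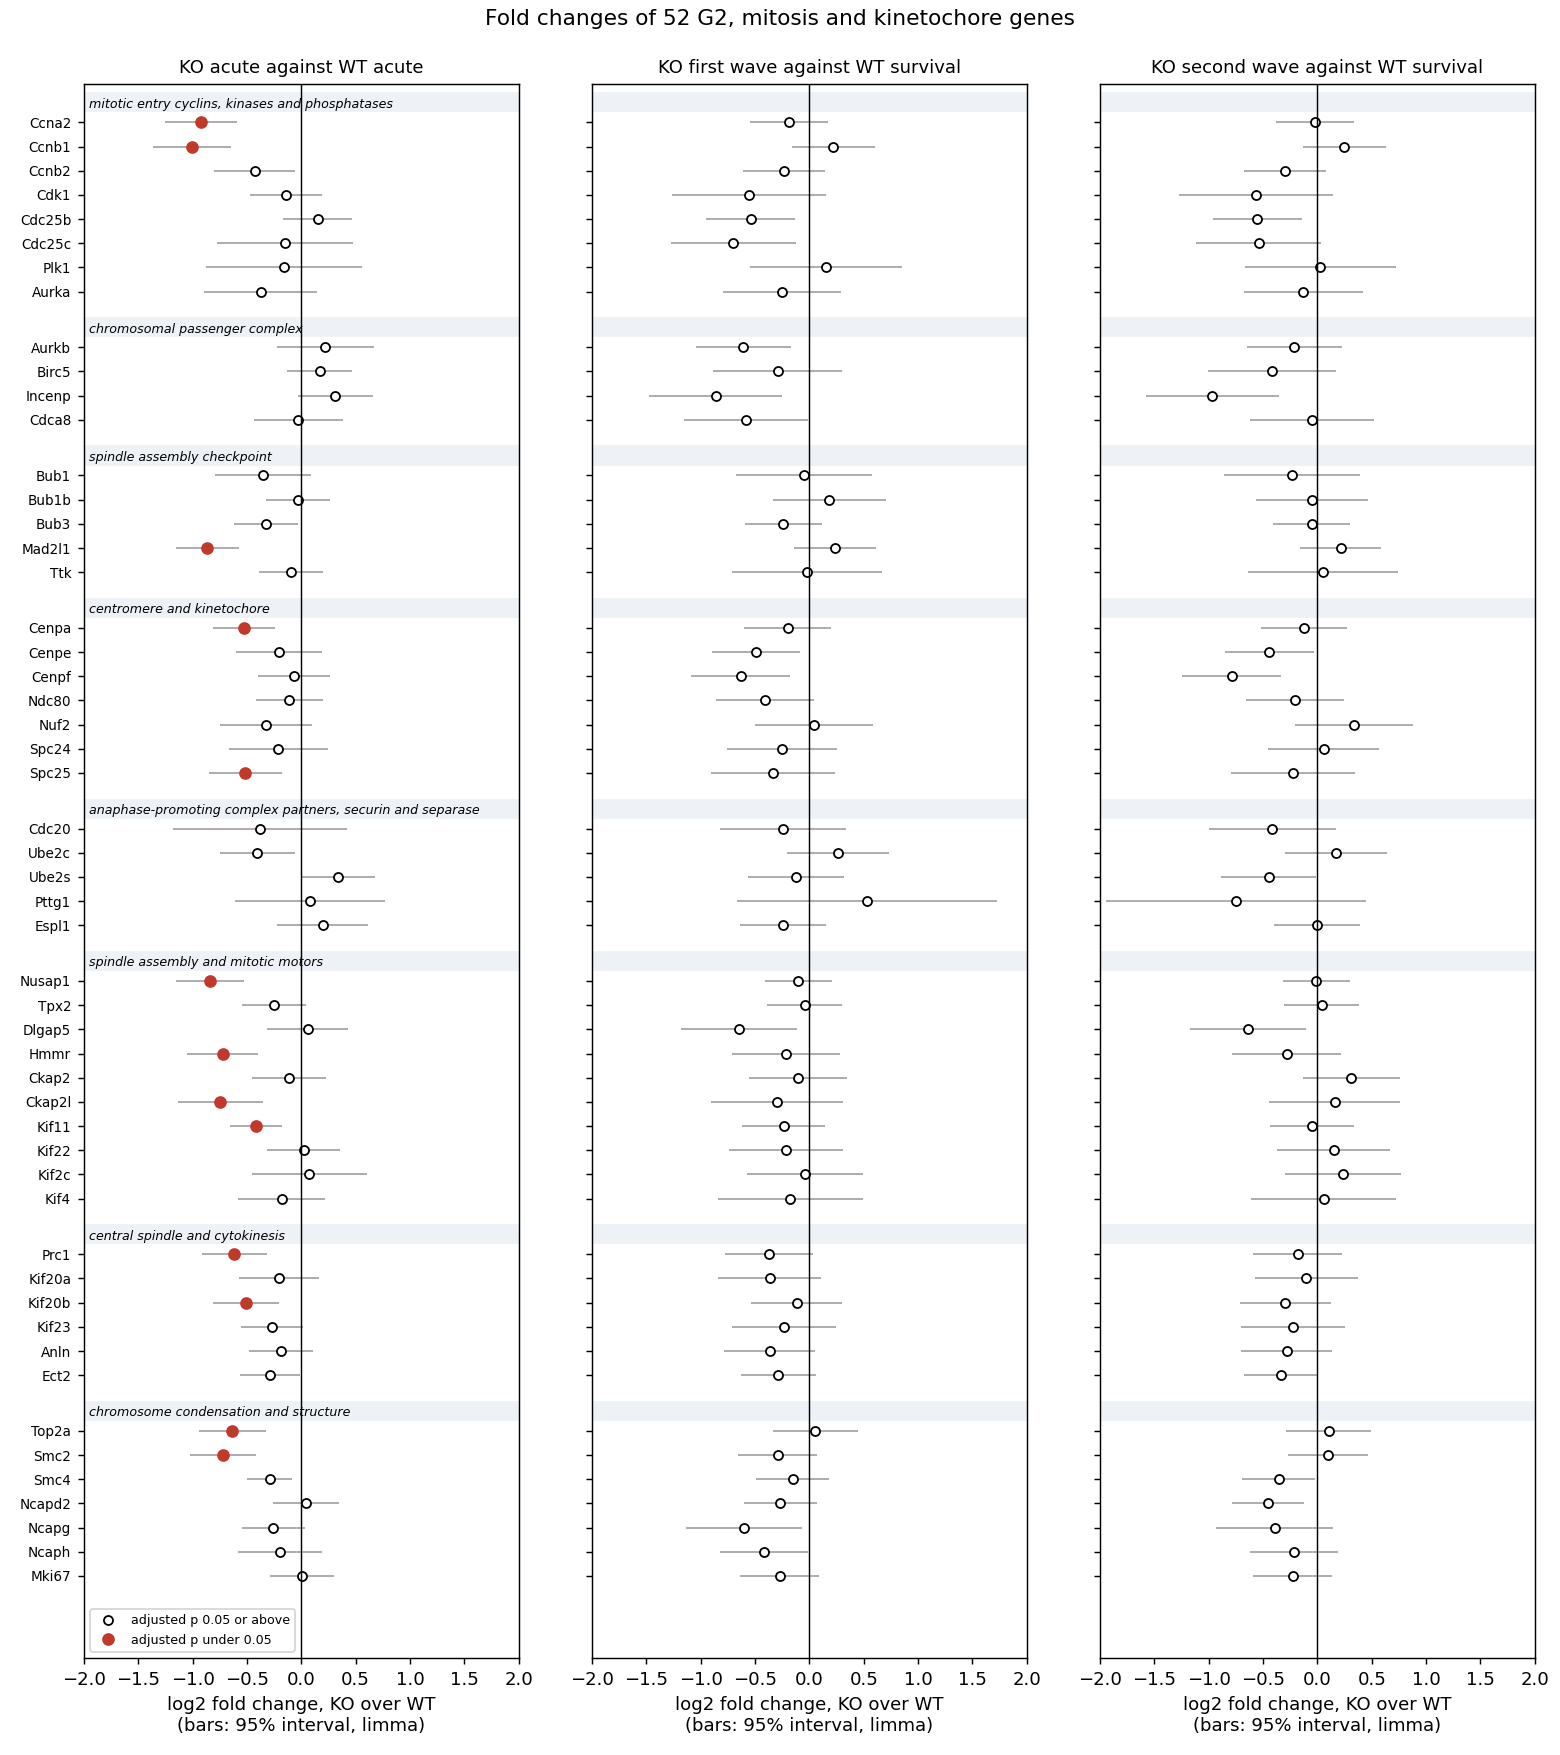
Log2 fold changes of the 52 genes, KO over WT, grouped by role, in the acute arm and in the first and second wave of the survival arm. Points are limma estimates, bars 95% intervals and filled points adjusted p under 0.05: the 13 filled points are all in the acute panel and all below 0, and the 4 chromosomal passenger genes lie between -0.03 and 0.31 in the acute panel and below 0 in the first wave panel, where Birc5 is at 0.05 without WT survival libraries 1 and 2.

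Upstream sequence was examined for the 2 motifs that mark promoters of this class. The CHR element was searched as TTTGAA or TTCGAA and the CCAAT box as CCAAT, on both strands, in the 250 bases before each RefSeq transcript start. Matches that shared end letters with another match were all counted. Other forms of the CHR element were not searched, so a window without these hexamers is not shown to lack the element. Windows were held for 43 of the 52 genes. A CHR-type hexamer was found in 20 of the 43 (46.5%), against 19.6% of all 27025 genes with a window and 16.0% of the 10326 of them tested in the acute arm. A CCAAT box was found in 32 (74.4%), against 37.5% and 40.6%, and both motifs in 18 (41.9%), against 7.0% and 6.23%. Among the genes that fell in acute KO, 5 of 12 with a window held the hexamer (41.7%) and 9 of 12 a CCAAT box, and among those that did not pass the threshold 15 of 31 (48.4%) and 23 of 31. The shares in these last groups lie close together. A match is a run of letters, not a site shown to be bound.

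The sequences below are the 200 bases before the start for the 5 genes that fell and whose window holds the hexamer, and for Ccnb1, added after its values were seen because it had the lowest log2 fold change. They are RefSeq sequence of build GRCm38.p6, written from 5′ to 3′ on the gene's strand, with CHR-type hexamers and CCAAT boxes of either strand in capitals. Read from the other strand, the hexamer TTTGAA appears as TTCAAA, while the CCAAT box then appears in its reversed form ATTGG.
Smc2, chr4:52439021-52439220, plus strand: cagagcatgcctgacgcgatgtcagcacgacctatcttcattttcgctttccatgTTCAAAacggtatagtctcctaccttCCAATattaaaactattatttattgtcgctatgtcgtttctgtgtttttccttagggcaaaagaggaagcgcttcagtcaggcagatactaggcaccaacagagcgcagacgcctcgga
Prc1, chr7:80294276-80294475, plus strand: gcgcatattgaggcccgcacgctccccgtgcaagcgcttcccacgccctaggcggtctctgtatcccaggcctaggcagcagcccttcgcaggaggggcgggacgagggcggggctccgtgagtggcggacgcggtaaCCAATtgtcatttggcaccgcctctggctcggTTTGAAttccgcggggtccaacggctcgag
Top2a, chr11:99024190-99024389, minus strand: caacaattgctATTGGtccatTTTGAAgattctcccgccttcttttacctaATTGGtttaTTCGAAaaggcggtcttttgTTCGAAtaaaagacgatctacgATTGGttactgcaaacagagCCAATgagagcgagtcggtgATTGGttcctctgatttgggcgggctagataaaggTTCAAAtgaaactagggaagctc
Ckap2l, chr2:129297213-129297412, minus strand: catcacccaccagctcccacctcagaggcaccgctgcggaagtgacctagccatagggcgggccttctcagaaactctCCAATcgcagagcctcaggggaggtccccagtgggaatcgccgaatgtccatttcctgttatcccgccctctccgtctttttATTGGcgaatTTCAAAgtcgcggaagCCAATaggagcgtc
Kif11, chr19:37376182-37376381, plus strand: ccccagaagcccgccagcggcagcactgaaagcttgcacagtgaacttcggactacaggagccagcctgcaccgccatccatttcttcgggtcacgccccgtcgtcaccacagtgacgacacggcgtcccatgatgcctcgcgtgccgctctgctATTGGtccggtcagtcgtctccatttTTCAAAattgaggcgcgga
Ccnb1, chr13:100786487-100786686, minus strand: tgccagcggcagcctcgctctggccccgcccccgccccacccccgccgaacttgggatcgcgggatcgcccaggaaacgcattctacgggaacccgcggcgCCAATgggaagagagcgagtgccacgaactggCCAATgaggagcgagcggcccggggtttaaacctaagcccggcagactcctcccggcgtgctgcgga
In Prc1, Top2a, Ckap2l and Kif11 a hexamer lies within the last 30 bases before the start, with a CCAAT box upstream of it. Top2a holds the most matches of the 6. The Ccnb1 window holds a pair of CCAAT boxes and none of these hexamers, and other forms of the CHR element were not searched in it.

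**Figure D2:**
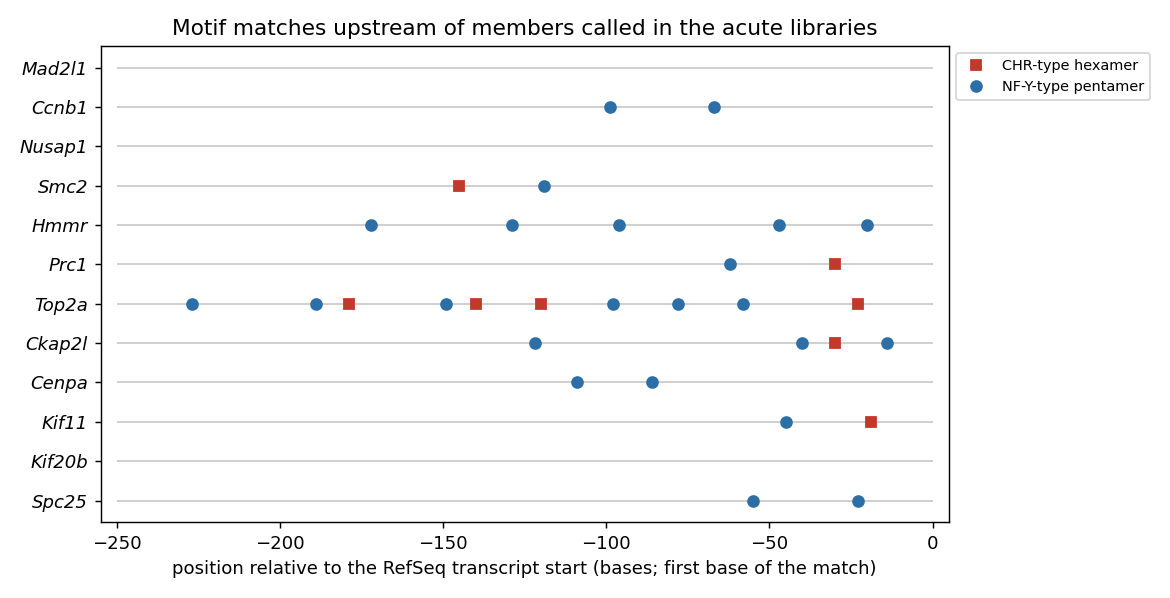
Positions of motif matches in the 250 bases before the RefSeq transcript start, for the 12 genes that fell in acute KO and have a window. Squares are CHR-type hexamers, circles CCAAT boxes (named here by the factor that binds them, NF-Y): the hexamers of Prc1, Top2a, Ckap2l and Kif11 nearest to the start lie within 30 bases of it, and Mad2l1, Nusap1 and Kif20b show no match.

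Of the 8 genes of mitotic entry, only the cyclins Ccna2 and Ccnb1 passed the threshold in acute KO. Ccnb1, cyclin B1, the partner of Cdk1 whose accumulation drives entry into mitosis, had 1112, 895, 1433 and 1554 normalized counts in KO, against 2486, 2981, 2212 and 2186 in WT. Every KO library lay below every WT library, and the KO mean was 50.6% of the WT mean (log2 fold change -1.0, SE 0.17, limma adjusted p = 0.00266). Ccna2, cyclin A2, which acts with Cdk2 in S phase and with Cdk1 in G2, had 1835, 1844, 2783 and 2865 in KO, against 4572, 4804, 3744 and 4246 in WT. It fell to 53.7% of WT (-0.92, SE 0.16, adjusted p = 0.00283), with KO libraries 1 and 2 lowest. Cdk1, the kinase both cyclins bind, differed far less, at 420.2, 577, 542 and 469 in KO, against 569, 585, 457 and 599 in WT (-0.14, SE 0.15, adjusted p = 0.586). Ccnb2, the second B-type cyclin, was at -0.43 with overlapping groups (adjusted p = 0.122). The kinases Plk1 (-0.16) and Aurka (-0.37) and the Cdk1-activating phosphatases Cdc25b (0.15) and Cdc25c (-0.15) also overlapped between groups.

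The chromosomal passenger complex and the partners of the anaphase-promoting complex had medians above 0 in the acute arm, 0.20 over 4 genes and 0.08 over 5, where the other 6 roles had medians of -0.21 to -0.32. The median over those 5 is the value of Pttg1, which turned negative under quantile normalization, so its sign is not firm. None of the 4 passenger genes passed the threshold: Aurkb, the kinase, was at 0.22 on the log2 scale, its scaffold Incenp at 0.31, survivin (Birc5) at 0.17 and borealin (Cdca8) at -0.03. Of the 5 anaphase genes none passed either. Ube2s, which extends ubiquitin chains for the anaphase-promoting complex, had the highest value of the 52, with 749.9, 506, 680.1 and 814 normalized counts in KO, against 591, 512, 506 and 533 in WT (0.34, SE 0.16, adjusted p = 0.177). Its groups overlapped through KO library 2, and without that library it passed the threshold (adjusted p = 0.0439). Ube2c, the enzyme that starts those chains, was at -0.40 (adjusted p = 0.114), the activator Cdc20 at -0.38, securin (Pttg1) at 0.08 and separase (Espl1) at 0.20. Mki67, the gene of the Ki-67 proliferation antigen, was at 5094, 5366, 4559.5 and 5339.8 in KO, against 6141, 5891, 3883 and 4658 in WT (0.01, SE 0.14).

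Among the 5 genes of the spindle assembly checkpoint, which delays anaphase until kinetochores are attached, Mad2l1 alone passed. This gene of Mad2, the protein that binds and holds Cdc20, had 857, 894, 1117 and 1049 normalized counts in KO, against 1562, 2148, 1620.3 and 1809.6 in WT. It had the lowest adjusted p of the 52 and fell to 54.9% of WT (-0.86, SE 0.14, limma adjusted p = 0.00194). The other checkpoint genes were at -0.35 (Bub1), -0.32 (Bub3), -0.09 (Ttk) and -0.03 (Bub1b), all with overlapping groups. All 7 centromere and kinetochore genes had values below 0, although Cenpf turned positive under quantile normalization and Ndc80 once fold changes were adjusted for transcript length, GC and level, and 2 passed. Cenpa, the histone H3 variant that marks centromeres, was at 1332, 1341, 1737 and 1668 in KO, against 2324, 2306, 1778 and 2328 in WT (-0.52, SE 0.13, adjusted p = 0.0201), and the groups were parted only by the gap between KO library 3 and WT library 3. Spc25, a subunit of the Ndc80 complex that grips microtubules, was at 445, 378, 459.8 and 584 in KO, against 741, 702, 596 and 607 in WT (-0.51, SE 0.16, adjusted p = 0.0471). Its partners in that complex were nearer to WT, at -0.11 for Ndc80, -0.32 for Nuf2 and -0.21 for Spc24. The corona proteins Cenpe (-0.21) and Cenpf (-0.07) did not pass.

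Spindle genes gave the largest number of calls, 4 of 10. Nusap1, which bundles spindle microtubules, had 1697, 1724, 2509 and 2274 normalized counts in KO, against 3579, 4121, 2971 and 3911 in WT (-0.84, SE 0.15, limma adjusted p = 0.0033). Hmmr, a spindle assembly factor, was at 548, 539, 657 and 686 in KO, against 1031, 1234, 813 and 962 in WT (-0.72, SE 0.15, adjusted p = 0.00796). In both, KO libraries 1 and 2 were the lowest and no KO library reached the lowest WT library. Ckap2l, a protein of spindle microtubules expressed at a lower level, was at 193, 170.0, 217 and 199 in KO, against 262, 403, 315 and 339 in WT (-0.75, SE 0.18, adjusted p = 0.0169). Kif11, the motor that pushes spindle poles apart, was at 2317, 2262, 2767 and 2733 in KO, against 3623, 3572, 3007 and 3234 in WT (-0.42, SE 0.11, adjusted p = 0.0254). The remaining 6, Tpx2, Dlgap5, Ckap2, Kif22, Kif2c and Kif4, ran from -0.25 (Tpx2) to 0.08 (Kif2c), with overlapping groups.

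The 6 genes of the central spindle and cytokinesis were all below 0, although Anln turned positive under that same adjustment. Prc1, which crosslinks the antiparallel microtubules of the central spindle, was at 1016, 914, 1122 and 1385 normalized counts in KO, against 1866, 1601, 1779 and 1500.5 in WT (-0.62, SE 0.14, limma adjusted p = 0.0117). Kif20b, a kinesin of cytokinesis, also passed (-0.51, SE 0.14, adjusted p = 0.0314), although its groups overlapped, with 1115, 1139, 1269.9 and 1028 in KO, against 1614, 1778, 1237 and 1899 in WT. The remaining values were -0.29 for Ect2, -0.27 for Kif23, -0.20 for Kif20a and -0.19 for Anln. Of the 7 chromosome structure genes, Top2a and Smc2 fell. Top2a, the topoisomerase that untangles sister DNA, had 7099.8, 7097, 8294 and 9297 in KO, against 15016, 14458, 9541 and 10919 in WT (-0.64, SE 0.14, adjusted p = 0.012). WT libraries 1 and 2 were far above WT libraries 3 and 4, so that KO library 4 came close to WT library 3. Smc2, an ATPase shared by both condensins, was at 1190.3, 1241, 1758 and 1667 in KO, against 2647, 2437, 2149 and 2303 in WT (-0.72, SE 0.14, adjusted p = 0.0058). Its partner Smc4 moved less and missed the threshold, with 4803, 4486, 4808 and 4556 in KO, against 6402, 5767, 5108 and 5624 in WT and no overlap (-0.29, SE 0.09, adjusted p = 0.0594). The condensin I subunits Ncapg (-0.26), Ncaph (-0.20) and Ncapd2 (0.04) overlapped between groups.

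**Figure D3:**
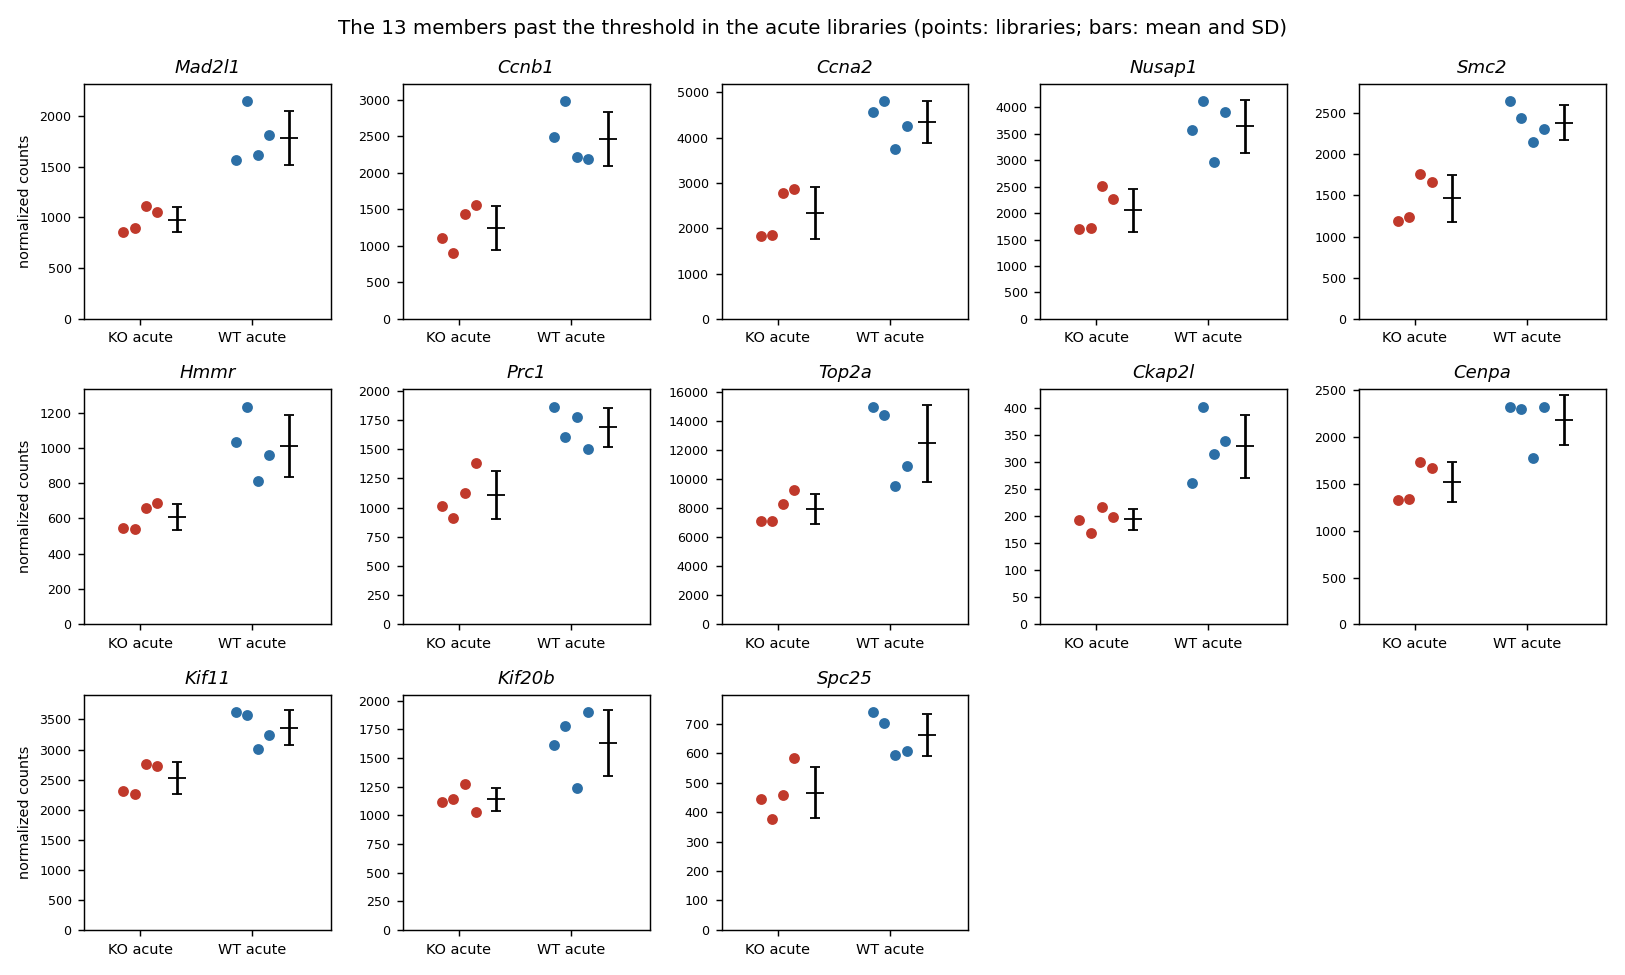
Normalized counts of the 13 genes that fell in acute KO, one panel a gene in order of p, with KO libraries left of WT libraries in order of replicate number. Points are libraries and bars the mean and SD (n = 4 each): KO and WT are parted in every panel except Kif20b, and Top2a in WT spans 9541 to 15016.

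For a single gene, 4 libraries against 4 cannot give an exact two-sided permutation p below 0.0286. The 13 of the 52 that reached it were those without overlap, for which that p is fixed. The calls were not equally firm. Mad2l1, Ccnb1, Ccna2 and Nusap1 kept an adjusted p under 0.05 under all 19 alternatives, Smc2 under 18, Hmmr under 17, Prc1 and Ckap2l under 16, Top2a under 15 and Cenpa under 12. Kif11 kept it under 9, Kif20b under 8 and Spc25 under 6. These calls of Kif11, Kif20b and Spc25 were each lost when any one of WT libraries 1, 2 and 4 or KO libraries 1 and 2 was left out, that of Kif20b also without KO library 4 and that of Spc25 also without WT library 3 or KO library 3. Cenpa lost its call without WT library 2, WT library 4 or KO library 1, and Ckap2l without WT library 2 or 4. Without WT library 2, or without WT library 4, 8 of the 52 were called. Of all genes tested, 1179 of 14211 and 983 of 14228 were then called, 766 and 648 of them lower. When a trend of fold change over transcript length, GC content and abundance was removed, 7 were called and the median over the 52 was -0.07. In that setting 1164 of 14176 genes tested were called, 610 of them lower. The 13 called genes had a median level of 1852 normalized counts, against 579 for the 39 others, with a median GC content of 42.6% against 47.8%.

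Other features of the acute libraries differed between the groups or within them. KO library 2 stood apart from the other KO libraries on the first principal component, at 67.1, against 22.7 to 36.0. On the second component it was at -56.9, against 16.8 to 41.8. The highest KO shares of erythroid, neutrophil, B cell and macrophage markers given below were all in that library. Summed over the 13 mitochondrially encoded genes, KO libraries 1 and 2 had 4.80% and 5.27% of all normalized counts and KO libraries 3 and 4 had 2.35% and 2.70%, against 3.50% to 3.69% in WT. The median deviation of the 52 genes from their WT mean was -0.39, -0.26, -0.15 and -0.23 in KO libraries 1 to 4, against 0.05, 0.14, -0.18 and -0.02 in WT libraries 1 to 4, so KO library 3 stood above WT library 3. Without KO libraries 1 and 2 the median over the 52 was -0.16, and 5 genes were called: Mad2l1, Ccnb1, Ccna2, Nusap1 and Smc2. Over all genes tested, 903 of 14046 were called without those libraries, 671 of them lower. Erythroid markers were below 0 for 19 of 19, with a median of -0.77 and 2 called. Their summed share was 0.0928% to 0.273% in KO, against 0.170% to 0.285% in WT, and no listed erythroid gene was at 0. Neutrophil markers were above 0 for 18 of 18 (median 0.78, 2 called), with a summed share of 0.0322% to 0.0880% in KO, against 0.0174% to 0.0356% in WT. B cell markers were above 0 for 10 of 10 (median 0.82, none called), with a share of 0.00768% to 0.0205% in KO, against 0.00544% to 0.0118% in WT. Macrophage and monocyte markers had 7 of 11 above 0 (median 0.06, 1 called, higher), and their share did not overlap, at 0.0184% to 0.0399% in KO, against 0.0134% to 0.0168% in WT. Up to 2 listed genes of these 3 types were at 0 in a library. Platelet and NK cell markers had no call, with medians of -0.11 over 5 genes and 0.11 over 6. Thymocyte and T-ALL markers had a median of -0.20 with 6 of 23 lower and 1 higher, and a summed share of 1.03% to 1.42% in KO, against 1.36% to 1.58% in WT. The part of these cell types in the result was not tested.

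**Figure D4:**
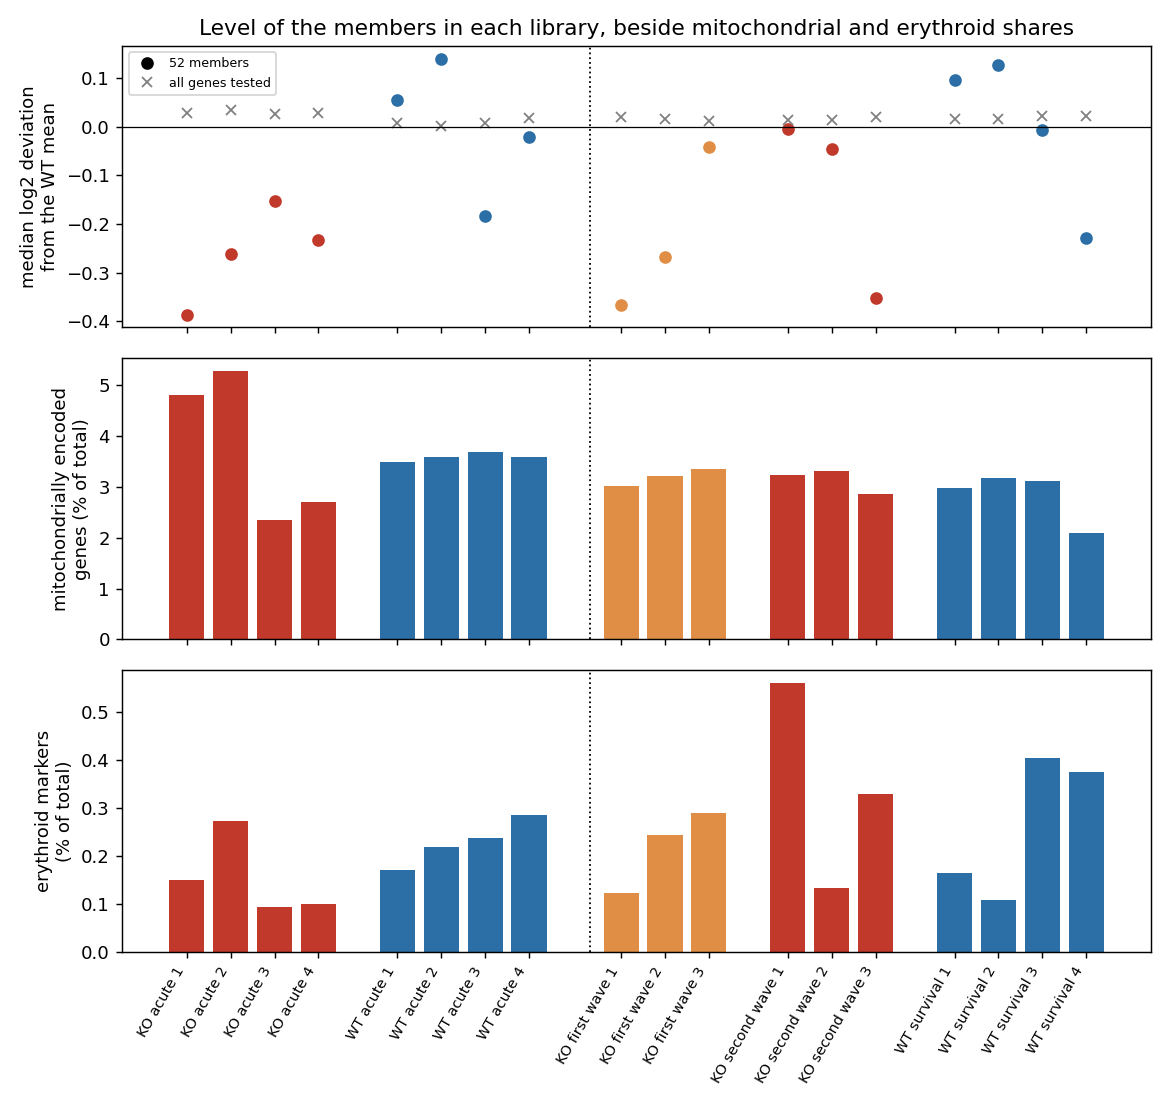
Each library's median log2 deviation of the 52 genes from their WT mean in its own table (circles, with all genes tested as crosses), above its share of mitochondrially encoded and of erythroid marker counts in percent. Acute libraries are left of the dotted line: all 4 acute KO circles are below -0.1, WT acute library 3 is at -0.18, and in the survival arm KO first wave library 3 and KO second wave libraries 1 and 2 are near 0. WT survival library 4 lies below them, at -0.23.

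Genes around the 52 in the same processes were read from 8 lists with 128 further genes. In the acute arm 15 of the 128 fell and 4 rose, where 8.07% and 4.58% of all genes did. Of the 128, 90 were below 0, with a median of -0.20. Of the 14 transcriptional regulators, Mybl2 (B-Myb) rose, with 207, 352, 237 and 249 normalized counts in KO, against 168, 157, 102 and 95.8 in WT (1.01, SE 0.24, limma adjusted p = 0.0159). Every KO library lay above every WT library, the opposite order to that of the genes of the 52 that fell, of which only Kif20b overlapped. Tfdp1, the dimer partner of E2F factors, fell (-0.58), as did Rbbp4, a MuvB subunit (-0.54). Foxm1 was at 353, 504, 444 and 458 in KO, against 636, 524, 378 and 645 in WT (-0.29, adjusted p = 0.335), with overlap. The call of Mybl2 was lost without WT library 4 (adjusted p = 0.0584).

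Of 20 entry and exit regulators 4 fell, where 8.07% of all genes fell and 4.58% rose. The same shares stand beside each list below. Cks2, a Cdk-binding subunit, was at 181, 165, 208 and 246 normalized counts in KO, against 298, 445, 332 and 433 in WT (-0.91, limma adjusted p = 0.0093). Cdca3 (-0.70), which promotes loss of Wee1, and Wee1 itself (-0.66), the kinase that restrains Cdk1, both fell, as did Arpp19 (-0.62), an inhibitor of the phosphatase PP2A-B55. The anaphase-promoting complex had 2 of 14 subunits lower, Cdc27 (-0.55) and Cdc26 (-0.77). In the constitutive centromere network 2 of 20 fell, Cenpq (-0.82) and Cenpl (-0.63), and in cohesin 2 of 13, Rad21 (-0.53) and Stag2 (-0.44). None of 18 outer kinetochore and checkpoint genes and none of 3 condensin II genes passed under limma, with 6 and 2 lower and 2 and 0 higher at an unadjusted p under 0.05. At that p 15.6% of all genes were lower and 12.5% higher. Of 26 further spindle, centrosome and cytokinesis genes 3 rose and 3 fell: Numa1, which focuses spindle poles, had 1577, 1943, 1720.2 and 1678 in KO, against 1031, 999.8, 1088 and 812 in WT (0.82, adjusted p = 0.00171), and the centriole gene Cenpj was at 0.74, whereas Tacc3 (-0.48) and Depdc1a (-0.72) were lower. Among the further genes named, single libraries decided 5 calls beside that of Mybl2. Calls of genes not named were not examined in this way. Tacc3 lost its call without WT library 2 or 4, Cdc26 without WT library 2 or 3 or KO library 1 or 2, Cenpj without any one library other than WT library 2 and KO libraries 3 and 4, and Cenpl and Depdc1a without any one library other than WT library 3 and KO libraries 3 and 4. A list of 47 S phase and DNA replication genes had 9 lower, 1 higher and a median of -0.07.

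In the first wave of the survival arm no gene of the 52 passed the threshold in KO, and 0 of 14286 genes tested did, a share of 0%. At an unadjusted p under 0.05, 10 of the 52 were lower and none higher in limma, where 3.6% of all genes were lower and 4.42% higher. Log2 fold changes were below 0 for 44 of the 52, against 49.4% of all genes, and their median was -0.24 beside 0.01 over all genes tested. Without WT survival libraries 1 and 2, 37 were below 0, the median was -0.15 and 3 were lower at an unadjusted p under 0.05. The share of all genes at that p was not computed without those libraries. KO and WT did not overlap for 6, all lower in KO, where 3.6% of all genes were lower without overlap and 4.4% higher. The 3 of smallest p were Incenp, Aurkb and Cenpf. Incenp had 453, 544 and 773 normalized counts in the first wave, against 1459.9, 1182, 788 and 884 in WT (-0.86, 95% interval -1.48 to -0.25, limma adjusted p = 0.617). WT libraries 1 and 2 were the highest, and without them its value was -0.54. Aurkb, which Incenp activates, was at 361, 333 and 354, against 528, 658, 481 and 478 in WT (-0.61, 95% interval -1.04 to -0.17), and at -0.46 without those libraries. Cdca8, of the same complex, was at -0.58, or -0.29 without them. Birc5 was at -0.29 and turned positive without them, at 0.05.

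Beside Incenp, Aurkb and Cdca8, the genes with an unadjusted p under 0.05 in the first wave were Cenpf, Cenpe, Dlgap5, Ncapg, Ncaph, Cdc25b and Cdc25c, all lower. Cenpf was at 1182, 1439.8 and 1202 normalized counts in KO, against 1795, 2537, 1645 and 1993 in WT (-0.63, 95% interval -1.09 to -0.17), and at -0.51 without WT libraries 1 and 2. Cenpe was at -0.49, or -0.46 without them. Dlgap5, a spindle protein, was at -0.65, or -0.28 without them. The condensin subunits Ncapg and Ncaph were at -0.60 and -0.42, or -0.14 and -0.27 without them. For Ncapg, WT libraries 1 and 2 held 6555 and 6674 normalized counts and WT libraries 3 and 4 held 3480.0 and 3514. Among phosphatases, Cdc25c was at -0.70 and Cdc25b at -0.54, or -0.25 and -0.53 without WT libraries 1 and 2. Pttg1 had the highest value, 0.53 (95% interval -0.66 to 1.73), or 0.32 without those libraries. The 23 thymocyte and T-ALL markers tested were all above 0 in the first wave, with a median of 0.27 and none called. Their summed share was 1.40% to 1.69% in KO, against 0.909% and 1.02% in WT libraries 1 and 2. In WT libraries 3 and 4 that share was 1.44% and 1.43%. Neutrophil markers were below 0 for 11 of 14 (median -0.95) and B cell markers for 6 of 9 (median -0.44), with none called. The summed neutrophil share was 0.00544% to 0.00725% in KO. It was 0.0263% and 0.0173% in WT libraries 1 and 2, and 0.0046% and 0.00747% in WT libraries 3 and 4.

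The second wave gave 0 of 52 genes past the threshold, where 0.224% of all genes passed. In limma 8 of the 52 were lower and none higher at an unadjusted p under 0.05, against 6.4% and 6.59% of all genes, and 37 were below 0, as were 50.9% of all genes. The median was -0.19, or -0.09 without second wave library 3 and likewise -0.09 without WT library 2. Among these genes 5 did not overlap with WT, all lower, where 4.62% of all genes were lower without overlap and 5.04% higher. Cenpf had the smallest p, with 1582, 1056 and 881 normalized counts in the second wave, against 1795, 2537, 1645 and 1993 in WT (-0.79, 95% interval -1.24 to -0.33, limma adjusted p = 0.178). Incenp had 346, 606 and 733, against the WT values given above (-0.97, 95% interval -1.58 to -0.35, adjusted p = 0.202), and -0.64 without WT libraries 1 and 2. Ncapd2, a condensin I subunit, was at 4069, 3679 and 3641, against 5386, 5335, 5763 and 4394 in WT (-0.45, adjusted p = 0.252). Cdc25b was at -0.55 and Dlgap5 at -0.64. The value of Dlgap5 was -0.27 without WT libraries 1 and 2. Nuf2 was highest, at 0.34, or 0.16 without second wave library 1. Without WT survival libraries 1 and 2, 30 of the 52 were below 0, 4 were lower at an unadjusted p under 0.05 and the median was -0.07. No share of all genes was computed for that reduced fit. Within the second wave, library 3 had a median deviation of -0.35 from the WT mean, and libraries 1 and 2 had -0.0043 and -0.05. WT libraries 1 to 4 had 0.10, 0.13, -0.0072 and -0.23, so WT library 4 lay below second wave libraries 1 and 2. B cell markers were below 0 for 8 of 9 in the second wave (median -1.29, 1 called), with a summed share of 0.00271% to 0.00416% in KO, against 0.00513% to 0.00776% in WT. Neutrophil markers were below 0 for 12 of 14 (median -0.61, none called), and for 14 of 14 over both waves (median -0.54, none called). Their summed share was 0.00737% to 0.0120% in the second wave and 0.00544% to 0.00725% in the first. WT libraries 1 and 2 had 0.0263% and 0.0173%, and WT libraries 3 and 4 had 0.0046% and 0.00747%. Erythroid markers had 10 of 19 above 0 (median 0.05, none called), with a share of 0.132% to 0.560% in KO, against 0.108% to 0.404% in WT. The part of these cell types in the survival values was not tested.

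**Figure D5:**
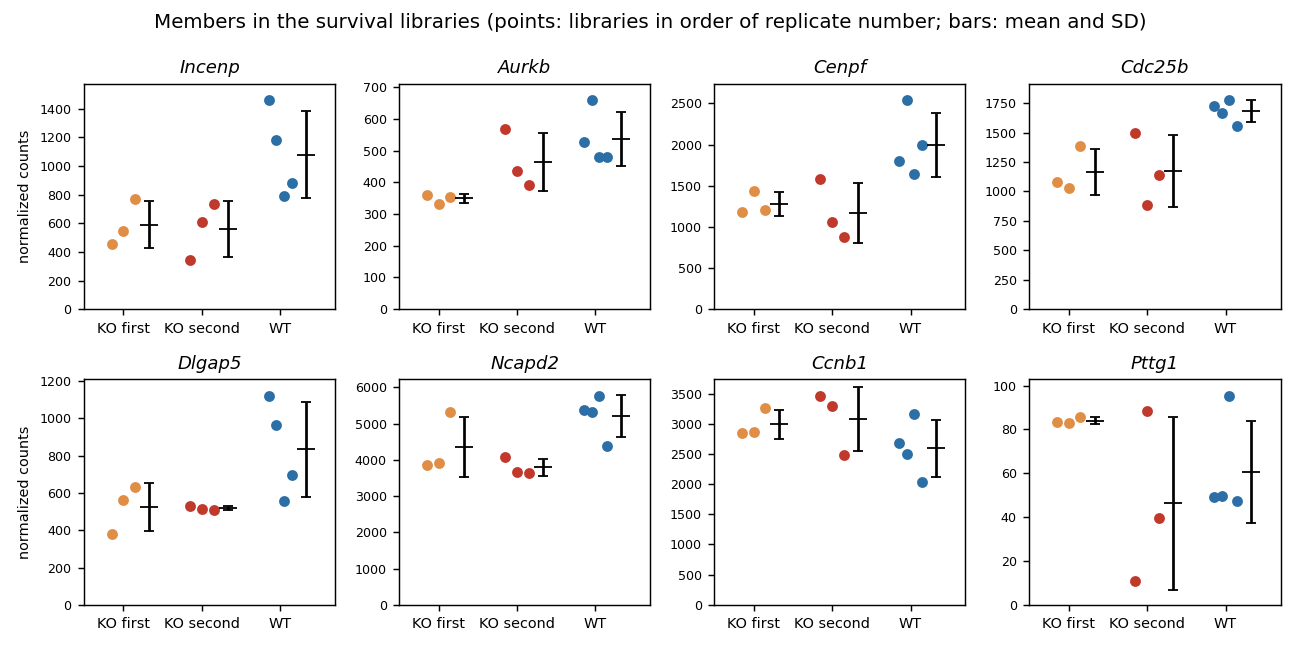
Normalized counts of 8 of the 52 genes in the survival arm, KO first wave and KO second wave left of WT, with libraries in order of replicate number. Points are libraries and bars the mean and SD (n = 3, 3 and 4): both KO waves lie below every WT library for Incenp, Cenpf and Cdc25b, WT libraries 1 and 2 are the highest for Incenp and Dlgap5, and Ccnb1 and Pttg1 overlap.

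Taken as 6 KO libraries against the same 4 WT libraries, both waves gave 0 of 52 past the threshold (0.021% of all genes), with 10 lower and none higher at an unadjusted p under 0.05 in limma, where 5.77% and 7.09% of all genes were. Values were below 0 for 42, against 51.4% of all genes, with a median of -0.22. Without WT survival libraries 1 and 2, 37 were below 0, the median was -0.08 and 2 were lower at an unadjusted p under 0.05. Here too the share of all genes was not computed for the reduced fit. The median was -0.14 without second wave library 3 and -0.32 without WT library 4. Cenpf (-0.71, SE 0.18), Incenp (-0.91, SE 0.24) and Cdc25b (-0.55, SE 0.16) were the 3 of smallest p and the 3 whose KO libraries all lay below WT, where 0.875% of all genes did. Cdc25b, which activates Cdk1 at the centrosome, had 1078, 1028 and 1390.4 normalized counts in the first wave and 1493, 884 and 1137 in the second, against 1728, 1665, 1775 and 1559 in WT. Without WT libraries 1 and 2 its value was -0.53, that of Cenpf -0.59 and that of Incenp -0.59. KO and WT did not overlap for these 3 genes, which fixes the exact two-sided permutation p at 0.00952. That is the smallest value that 6 libraries against 4 can give, so it adds nothing to the parting. In limma the smallest adjusted p of the 52 was 0.251.

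Set against the first wave, the second wave had 0 of 52 genes past the threshold, where 0.119% of all genes passed. In limma 1 of the 52 was lower and none higher at an unadjusted p under 0.05, where 3.76% and 2.58% of all genes were. Log2 fold changes, second over first wave, were above 0 for 33, against 48.9% of all genes, and had a median of 0.07. This direction rested on single libraries: without first wave library 1, 25 of the 52 were above 0 and the median was -0.0039. The median was 0.14 without first wave library 3, 0.03 without second wave library 1 and 0.18 without second wave library 3. Pttg1 had the smallest p, with 10.8, 88.5 and 39.5 normalized counts in the second wave, against 83.3, 83.1 and 85.7 in the first (-1.28, 95% interval -2.56 to -0.01, limma adjusted p = 0.784). The second wave spanned a wide range, and its library 2 exceeded every first wave library, and without second wave library 1 the value was -0.50. Smc2 was at 0.39 and Ckap2 at 0.42, and Cdca8 had the highest value, 0.53. Aurkb and Kif2c were higher in the second wave without overlap, as were 6.3% of all genes.

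Of the 13 genes called in the acute arm, 10 were below 0 in the first wave and 8 in the second, and none passed the threshold there. Of the 39 others, 34 and 29 were below 0, and of all genes tested 49.4% and 50.9%. Without WT survival libraries 1 and 2, 37 and 30 of all 52 were below 0. The tables were normalized separately, so each value below comes from its own table and the difference between arms was not tested. Ccnb1 was at -1.0 in the acute arm, 0.22 in the first wave and 0.25 in the second. Mad2l1 was at -0.86, 0.24 and 0.21, and Top2a at -0.64, 0.05 and 0.11. These 3 were the ones above 0 in the first wave, and without WT survival libraries 1 and 2 Top2a was below 0 in both waves, at -0.13 and -0.08. Nusap1 was at -0.84, -0.10 and -0.01, and Ccna2 at -0.92, -0.18 and -0.02. Without those libraries the survival values were -0.03 and 0.06 for Nusap1 and -0.09 and 0.07 for Ccna2. Ckap2l was at -0.75, -0.30 and 0.16, Hmmr at -0.72, -0.21 and -0.28, and Smc2 at -0.72, -0.29 and 0.10. In the first wave Ckap2l and Hmmr turned positive without those libraries, at 0.02 and 0.01, and in the second wave Ckap2l turned negative without second wave library 1, at -0.08. Incenp ran the other way, at 0.31, -0.86 and -0.97, as did Cdc25b, at 0.15, -0.54 and -0.55. Over the 13 genes called in the acute arm the median was -0.20 in the first wave and -0.02 in the second, and over the 39 others -0.25 and -0.22. Mybl2, higher in acute KO, was at -0.78 in the first wave and -0.49 in the second, with 214, 170.1 and 174 and 289.7, 185 and 216 normalized counts, against 439, 421, 144 and 390.1 in WT, and at -0.35 and -0.06 without WT libraries 1 and 2. Foxm1 was at -0.24 and -0.44, but at 0.20 and 0.00073 without them.

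Within groups the 52 genes varied together. After each group's mean was subtracted, the median Pearson correlation between pairs of the 52 was 0.28 over the 8 acute libraries (1326 pairs, 71.1% above 0) and 0.31 over the 10 survival libraries (72.5% above 0), beside 0.01 and -0.01 with other genes. The pairs share their libraries, and with them any difference in depth. In the acute libraries Top2a and Kif11 followed the other genes most closely, with medians of 0.57 and 0.55, and Plk1 ran against them at -0.50. In the survival libraries Kif11 (0.61) and Hmmr (0.58) were highest and Bub1b (-0.28) lowest.

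Levels differed widely between the genes. As normalized counts per kilobase of the longest annotated transcript, Top2a stood at 2391 ± 512 in acute WT spleens (SD, n = 4), Ccna2 at 1464 ± 155, Smc4 at 1326 ± 123, Nusap1 at 1034 ± 142 and Ccnb1 at 991 ± 148. The lowest were Plk1 at 71.5 ± 37.4, Cdc20 at 60.8 ± 6.91 and Pttg1 at 28.1 ± 3.94. The order of neighbours was not set by these data where their SDs overlap, as for Ccna2 and Smc4, or Nusap1 and Ccnb1. Plk1 and Pttg1, at the low end, had SEs of 0.33 and 0.32 on the acute log2 fold change, against a median of 0.14 for the 13 called genes, so a change of the size seen in those 13 was harder to detect in them.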

How the data were processed

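RNA was measured in 18 libraries. Per the submitters' processing notes, reads were processed with kallisto 0.44.0 and DESeq (version not given in the sources used here) on GRCm38. The deposited values are a signal, counts divided by size factors by the authors, in an acute and a survival table that were normalized separately, so tests stay within a table. Kallisto splits reads between similar transcripts by estimate. Multiples of 1 read did not come out whole (17.5% to 63.4% of values under 8, within 0.02), so no count test was run and the depth is known only as a rough estimate, 6075949 to 12676421 reads a library if the commonest low value of each library stands for 1 read.

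Genes with a mean of at least 10 were tested, 14184 and 14286, with limma 3.58.1 (R 4.3.3, lmFit and eBayes with trend) on log2(value + 1), which understates changes of low genes, with Benjamini-Hochberg adjustment over all genes tested. The survival fit held all 10 libraries. The calculation was tested on simulated data.

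The 52 genes and all lists were chosen with earlier results of these data known. Named were those past the threshold, the 12 of smallest p in full, the 3 of smallest p where none passed, the highest and lowest, up to 4 a pathway list, and Foxm1, Mybl2 and Acly. Spc25 beyond that rule, Smc4, Cdc25b, Cenpe, Dlgap5, Ncapd2 and Ccnb1 in the survival arm, and other genes given by value alone were chosen after their values were seen. Coordinates of sequences are RefSeq GRCm38.p6, and lengths are GENCODE M21. Alternatives covered pseudocount, filter, scaling, variance model, left-out libraries and a replicate block.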

Additional observations from a re-analysis of the deposited data

Results flagged for a closer look

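Of 138 groups of 4 libraries examined gene by gene, 7 held a library set apart from the other three by a gap of more than 0.829 of the group's range, and chance alone flags about 1 in 20. In WT acute library 3, Cenpa stood at 1778 normalized counts, against 2306, 2324 and 2328 in the other WT acute libraries, which narrows the gap between KO and WT given above for this gene. WT survival library 4 was the low one for 4 genes: Rbbp4 at 3848 (others 6004 to 6343), Cks2 at 318.8 (others 528.6 to 533.7), Cdc27 at 2548 (others 3670 to 3773) and Cenpq at 304.4 (others 496.2 to 539.3). All 4 fell in acute KO. Genes outside the 52 were examined here only if called in acute KO, or as Foxm1, Mybl2 or Acly. That choice largely fixed the overlap in advance, so nothing is drawn from it. The same library had the lowest median deviation of the 52 genes among WT survival libraries, -0.23, and the lowest mitochondrial share, 2.09%. WT survival library 3 was low for Mybl2, at 143.6 (others 390.1 to 438.7), and high for Pttg1, at 95.19 (others 47.32 to 49.81).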

How the results depend on the processing

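The count of 13 genes of the 52 called in the acute arm was 8 under quantile normalization, 5 without the variance trend, 7 with the length, GC and abundance trend removed, 5 without KO acute libraries 1 and 2, and 8 to 13 with 1 library left out. Over all genes the acute count of 1794 (650 higher, 1144 lower) was 693 without the variance trend, 1164 with that trend over gene properties removed (554 higher, 610 lower), 903 without KO acute libraries 1 and 2 (232 higher, 671 lower), and 983 to 1634 with 1 library left out, 983 without WT library 4 and 1179 without WT library 2. Quantile normalization gave 746 higher and 832 lower. The acute median of the 52 stayed below 0 in all 19 alternatives. The acute log2 fold change changed sign for 4 genes of the 52 under quantile normalization, 3 under median centring and 7 with the trend removed, none of them called. In the survival arm no alternative called any of the 52. Over all genes the first wave count was 1 with a pseudocount of 8, no filter, a minimum of 50, quantile normalization, robust eBayes or the trend removed, 3 without WT survival libraries 1 and 2, and 0 to 3 with 1 library left out. The second wave count of 32 was 14 without the variance trend, 14 without WT survival libraries 1 and 2, 13 from the libraries of both sides only, and 15 to 140 with 1 left out (140 without WT library 3). The count of 17 between waves was 1 without the variance trend, 2 with the replicate block, 34 without WT survival libraries 1 and 2, and 1 to 38 with 1 left out. For both waves the count of 3 was 5 without WT survival libraries 1 and 2 and 2 to 155 with 1 left out. Foxm1 turned positive at 0.20 (first wave), 0.00073 (second wave) and 0.098 (both) without WT libraries 1 and 2. With 1 library left out it ran from -0.45 to 0.035 in the first wave (0.035 without WT library 2) and from -0.39 to 0.11 between waves (0.11 without second wave library 1). The causes were not tested. Replicate numbers did not pair the libraries (correlations of same-numbered libraries -0.029 to 0.0946), and with the number as a block 10 of the 52 and 1391 of all genes were called in the acute arm.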
